A study of Homo sapiens with 56 samples.

Results

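The response to 2-methylisocitrate (2-MiCit) was compared between HT29 and SK-CO-1 (SKCO1 in the labels), both established human colorectal cancer cell lines. All genes of one count table were examined in the libraries of these lines, which are 16 of the 56 libraries of the series, 4 in each of 4 groups. The groups were HT29 given water as the vehicle, HT29 given 10 mM 2-MiCit, SK-CO-1 given water and SK-CO-1 given 10 mM 2-MiCit. The labels describe the cells of every group as epithelial colon cells of wild-type genotype, so none carried an introduced allele according to the labels, and each line stands for the 1 tumour it came from. The duration of exposure and the culture of these lines are not given in the sources used here. No source states that the 4 libraries of a group came from separate cultures, and p-values therefore reflect the spread among libraries, which could be technical spread alone. The question was which genes 2-MiCit changed in both lines, in 1 line alone, or in opposite directions.

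2-MiCit is an intermediate of the methylcitrate cycle, by which many bacteria break down propionate, and it is a methylated relative of isocitrate, an intermediate of the tricarboxylic acid cycle. Several gene programmes described below have a well-known control: SREBP2 drives cholesterol synthesis genes when sterol falls, MondoA drives TXNIP and ARRDC4 when glucose phosphates accumulate, TEAD factors with YAP drive CCN1 and CCN2, and many genes that peak at mitosis have CCAAT boxes in their promoters.

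Library totals were 29073000 to 34101000 counts in HT29 and 32490000 to 39017000 counts in SK-CO-1 (to the nearest 1000), and 15423 of 16454 genes passed the filter on low counts. The first principal component separated the lines and held 89.6% of the variance. Mitochondrially encoded genes took 2.21% to 2.84% of the counts in HT29 and 3.06% to 4.10% in SK-CO-1. Of 11 colon epithelium markers, 10 were in the table, and their summed level was 9420 to 10400 CPM (counts scaled to a common library total) across the HT29 libraries and 15400 to 16700 CPM across those of SK-CO-1. Fibroblast markers (2 of 6 in the table) summed to at most 6.81 CPM, neural markers (2 of 4) to at most 2.38 CPM and endothelial markers (1 of 4) to at most 0.804 CPM. The leukocyte list (3 of 6 in the table, without PTPRC and CD3E) was carried in HT29 by LYZ, lysozyme, which intestinal epithelium also makes, at a mean of 1753 CPM in controls. Each line's effect was the log2 fold change of 2-MiCit over control. The difference between the lines was the HT29 effect minus the SK-CO-1 effect, tested as the treatment-by-line interaction. All 3 came from 1 edgeR quasi-likelihood fit of the 16 libraries, and genes whose p, adjusted by Benjamini and Hochberg over all genes tested, fell below 0.05 are referred to as called. Adjusted p-values below are from this test unless another is named, and errors are standard errors (SE) of the fit with n = 4 libraries per group.

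The effect of 2-MiCit differed between the lines for 376 genes, 2.44% of those tested. It was higher in HT29 than in SK-CO-1 for 253 genes (1.64%) and lower for 123 (0.798%). In HT29, 2018 genes were called (13.1%), 1205 higher (7.81%) and 813 lower (5.27%), and in SK-CO-1, 1154 genes were called (7.48%), 539 higher (3.49%) and 615 lower (3.99%). Both lines called 382 genes, which were 18.9% of the HT29 calls and 33.1% of the SK-CO-1 calls, and 350 of them moved in 1 direction. Changes were small: 90 called genes changed over 2-fold in HT29 and 22 in SK-CO-1. Over all tested genes the effects in the lines correlated weakly (Pearson r = 0.0776, Spearman rho = 0.229 across genes, which are not independent replicates). Among called differences the smallest was 0.15 on the log2 scale and the median 0.32.

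Which line had more calls depended on how the spread was estimated. With each line fitted alone, 1065 genes were called in HT29 and 2775 of the same tested genes in SK-CO-1, the reverse order. The SK-CO-1 libraries scattered less than those of HT29 (biological coefficient of variation 0.0741 against 0.0936). The number of calls per line is therefore not a measure of how strongly a line responded. Called differences numbered 327 when each line had its own spread (limma voom with weights per line), and 300 of the 376 genes were called again. With gene-by-library factors recovered from the authors' normalized counts 116 differences were called, 99 of them among the 376. Across all 26 alternatives run for the difference, 79 of the 376 genes kept their call.

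Genes were sorted by their calls. With the difference not called, 184 genes were higher in both lines and 144 lower in both. Genes called in HT29 and not in SK-CO-1, with the difference called, numbered 169 higher and 59 lower. Those called in SK-CO-1 and not in HT29 numbered 37 higher and 38 lower. In the fit of SK-CO-1 alone, 9 of the 169 were called higher and 21 lower, and 8 of the 59 higher and 4 lower. An absence of response in SK-CO-1 was therefore not shown for these groups. Opposite directions were called for 32 genes, and 22 moved in 1 direction with different size. A further 19 genes had a called difference and no call in either line. The remaining calls (1408 in HT29, 697 in SK-CO-1) came with no called difference, so those genes were not shown to respond in 1 line alone.

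**Figure D1:**
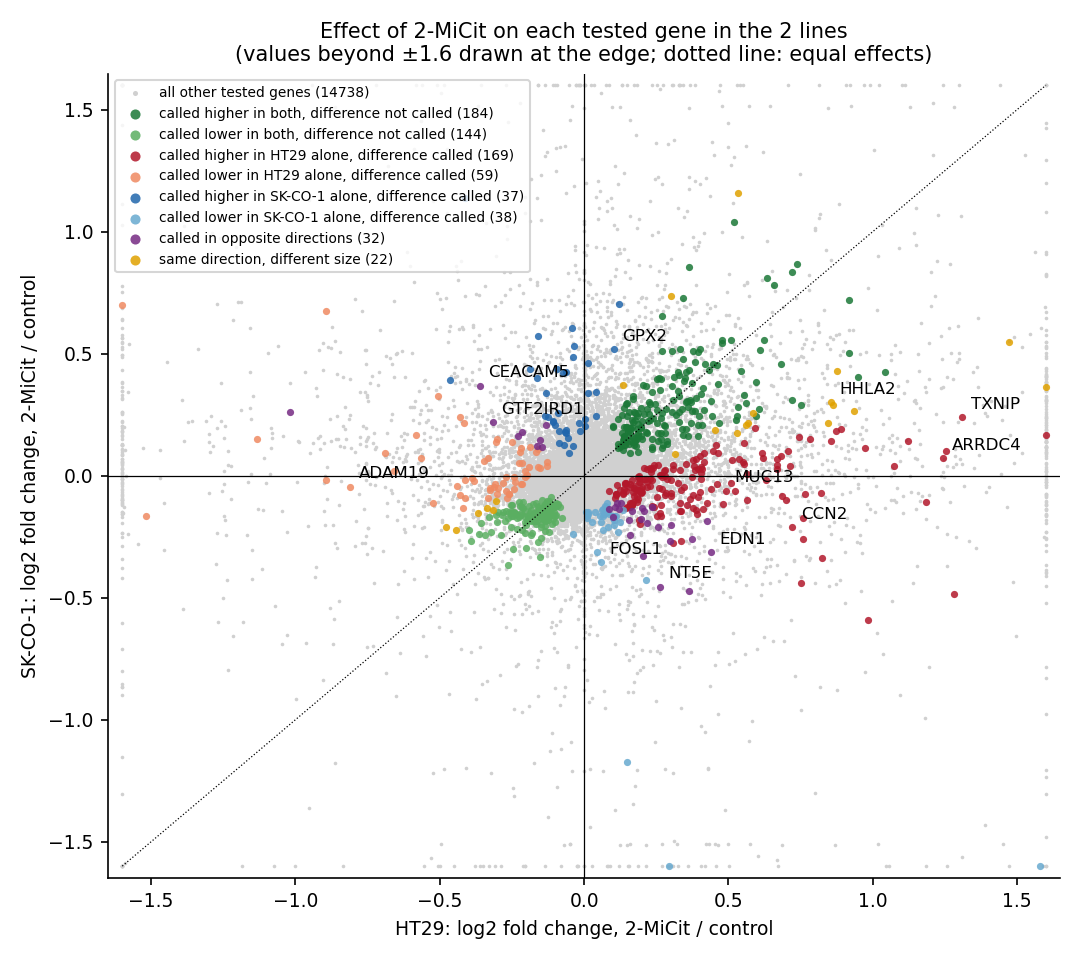
Each point is 1 of the 15423 tested genes, placed by its log2 fold change with 2-MiCit in HT29 (horizontal) and in SK-CO-1 (vertical); colours give the call groups with the number of genes in each, and values beyond ±1.6 are drawn at the edge. The 184 and 144 shared genes lie at the upper right and lower left, on either side of the dotted line of equal effects. Their differences were not called, which does not show equal effects. TXNIP and ARRDC4 lie far to the right near an SK-CO-1 effect of 0.

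TXNIP and ARRDC4 rose over 2-fold in HT29, and the difference from SK-CO-1, where neither was called, was called for both. They are related arrestin-fold genes that restrain glucose uptake. TXNIP (ENSG00000265972; GRCh38, chr1:145992435-145996600, minus strand) was at 144, 162, 125 and 117 CPM in the HT29 control libraries and at 384, 291, 350 and 334 CPM with 2-MiCit. The SK-CO-1 libraries had 114, 120, 117 and 115 CPM in controls and 137, 138, 136 and 140 CPM with 2-MiCit. The groups did not overlap in either line, which was also so for 14.8% of all tested genes in HT29 and 21.7% in SK-CO-1. The log2 effect was 1.31 ± 0.09 (2.48-fold) in HT29 and 0.24 ± 0.09 (1.18-fold, adjusted p = 0.124) in SK-CO-1, and the difference was 1.07 ± 0.13 with an adjusted p of 0.000663. In the fit of SK-CO-1 alone TXNIP was called higher (adjusted p = 1.51e-05), so the lines differed in the size of its response.

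ARRDC4 (ENSG00000140450; chr15:97960698-97973838) was at 11.3, 12.7, 10.2 and 9.11 CPM in HT29 controls and at 28.0, 23.6, 25.9 and 25.0 CPM with 2-MiCit. SK-CO-1 had 25.3, 26.5, 25.2 and 26.3 CPM in controls and 26.5, 27.6, 26.0 and 28.5 CPM with 2-MiCit. The treated HT29 libraries thus lay at about the level that SK-CO-1 held with or without 2-MiCit. The log2 effects were 1.24 ± 0.08 and 0.07 ± 0.07, and the difference of 1.17 ± 0.11 (adjusted p = 1.01e-05; 95% confidence interval 0.95 to 1.39) was called in all 26 alternatives, as was that of TXNIP.

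The promoter of TXNIP is printed because TXNIP is the best-known target of the glucose-sensing factor MondoA, which binds a pair of E-box-like sites. It is the RefSeq promoter table's sequence on GRCh38.p14, chr1:145996530-145996829, minus strand, from 250 bases before to 50 after the start. Capitals mark the pair, searched on both strands as CACGNG, then any 5 bases, then CNCGNG.
TXNIP: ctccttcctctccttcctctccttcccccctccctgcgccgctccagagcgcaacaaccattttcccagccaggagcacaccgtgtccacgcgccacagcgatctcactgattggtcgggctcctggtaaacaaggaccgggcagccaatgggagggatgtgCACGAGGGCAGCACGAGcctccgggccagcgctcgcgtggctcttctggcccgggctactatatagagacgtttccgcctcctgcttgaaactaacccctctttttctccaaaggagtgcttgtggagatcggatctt
The match begins 88 bases before the start, and one is held by 0.524% of the 27305 promoters of this length in the table and by 0.828% of the 10873 promoters found for tested genes. Of the 124 promoters found for the genes called higher in HT29 and not in SK-CO-1, 2 held a match, and none of the 25 found for the opposite genes did. The match describes the letters of the reference and is no measure of binding in these cells.

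Both lines raised other genes of the list to which TXNIP and ARRDC4 belong, which joins FOXO targets and genes of growth arrest. Of 17 tested members 9 were higher in HT29 and 5 in SK-CO-1, with none lower in either. The median log2 effects were 0.28 and 0.21 beside 0.01 over all tested genes in each line. This list, like the others here, was chosen with earlier results of these data known. Its counts and medians therefore describe its members and are no test of the list. KLHL24, YPEL3 and BCL6 were higher in both lines with no called difference. PINK1, the kinase that marks damaged mitochondria, rose by 0.53 ± 0.05 in HT29 and by 0.18 ± 0.05 in SK-CO-1. This difference in size (adjusted p = 0.0154) was lost without replicate 3 of the SK-CO-1 controls and without replicate 2 of the treated SK-CO-1 libraries, and the SK-CO-1 call of PINK1 was lost in 12 of 27 alternatives. In the fits of each line alone, 7 members were higher in HT29 and 10 in SK-CO-1, and the fit of both lines without 1 library gave 8 to 11 and 3 to 6.

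**Figure D2:**
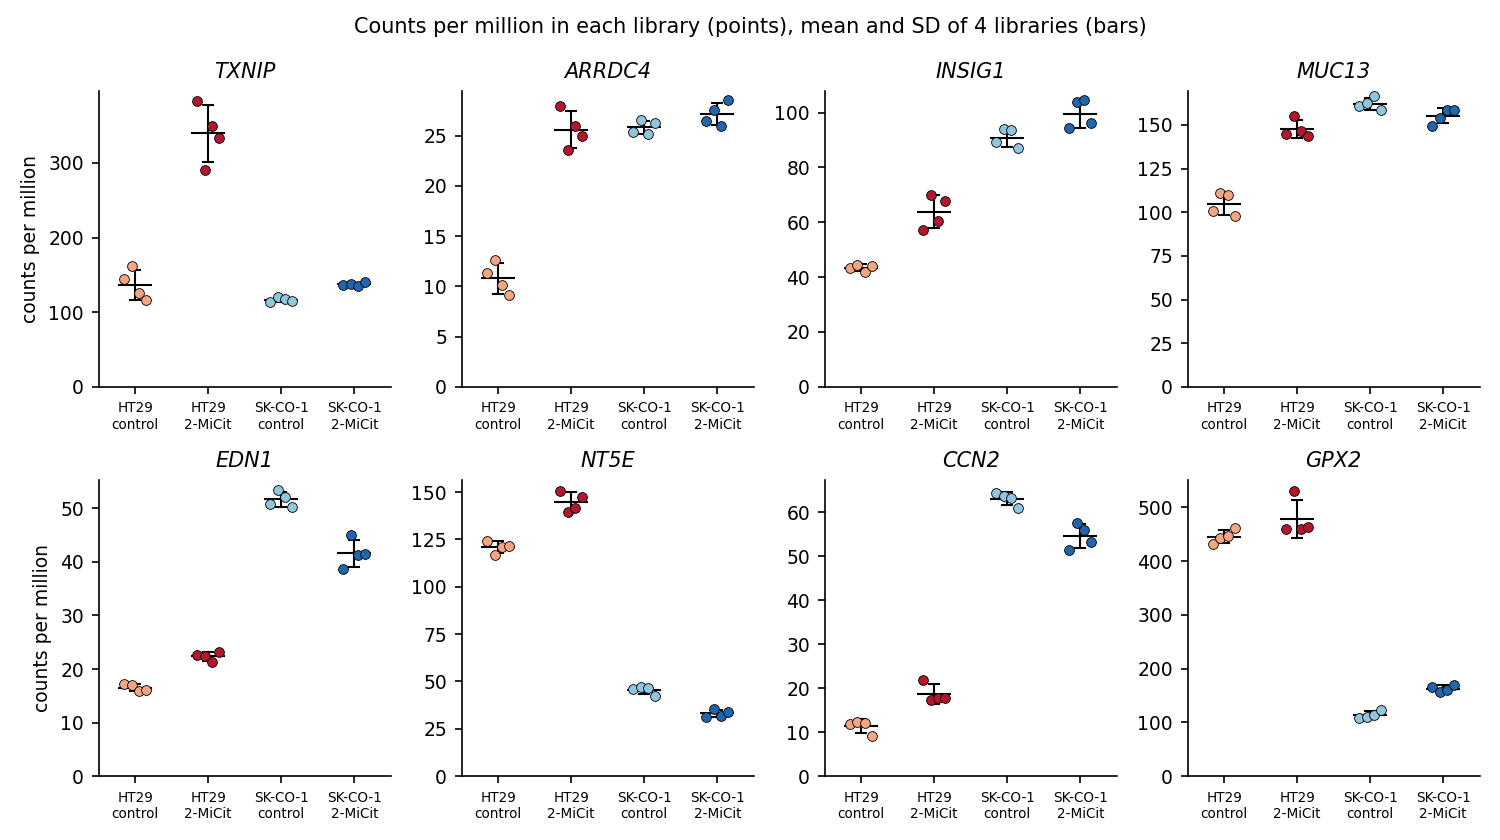
Each panel shows 1 gene: points are the 4 libraries of each group in CPM, on an axis that starts at 0, and bars the mean and SD. TXNIP, ARRDC4, INSIG1 and MUC13 are higher with 2-MiCit in HT29 in every library, EDN1 and NT5E move in opposite directions in the lines, CCN2 is higher in treated HT29 and lower in treated SK-CO-1, and GPX2 is higher in treated SK-CO-1.

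Genes of cholesterol synthesis and uptake were higher in HT29. Of 24 tested genes 15 were called higher in HT29 and none lower, and 1, SREBF2 itself, was called higher in SK-CO-1. The median log2 effect was 0.30 in HT29 and 0.10 in SK-CO-1. The difference was called for 3 of the 24, among them INSIG1, which holds SREBP back when sterol is plentiful, and IDI1, an isomerase of the pathway.

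INSIG1 was at 43.5, 44.5, 41.8 and 44.2 CPM in HT29 controls and at 57.1, 69.98, 60.4 and 67.7 CPM with 2-MiCit, whereas SK-CO-1 had 89.2, 93.9, 93.6 and 87.0 CPM in controls and 94.2, 104, 104 and 96.0 CPM with 2-MiCit. Treated and control libraries did not overlap in either line, but in SK-CO-1 they lay close together. INSIG1 rose by 0.55 ± 0.06 in HT29 against 0.13 ± 0.05 in SK-CO-1 (difference 0.42 ± 0.08, adjusted p = 0.00706), and this difference was called in all 26 alternatives. The difference of IDI1 (0.32 ± 0.07, adjusted p = 0.0312) was lost in 10 of them.

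HMGCS1, an early enzyme of the pathway, had log2 effects of 0.41 ± 0.05 in HT29 and 0.13 ± 0.05 in SK-CO-1 (adjusted p of the difference 0.0536). The SK-CO-1 count rested on the pooled spread: 10 of the 24 genes were called higher in the fit of SK-CO-1 alone and 12 in that of HT29 alone. Leaving out 1 library gave 13 to 20 called in HT29, 0 to 4 in SK-CO-1 and 2 to 6 called differences. The response was therefore smaller in SK-CO-1 for INSIG1 and IDI1, and an absence of response of the list there was not shown. ACSS2, which makes acetyl-CoA from acetate, rose in both lines, by 0.58 on the log2 scale in HT29 and by 0.26 in SK-CO-1, and its difference (0.33, adjusted p = 0.0123) was lost with the authors' factors alone.

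**Figure D3:**
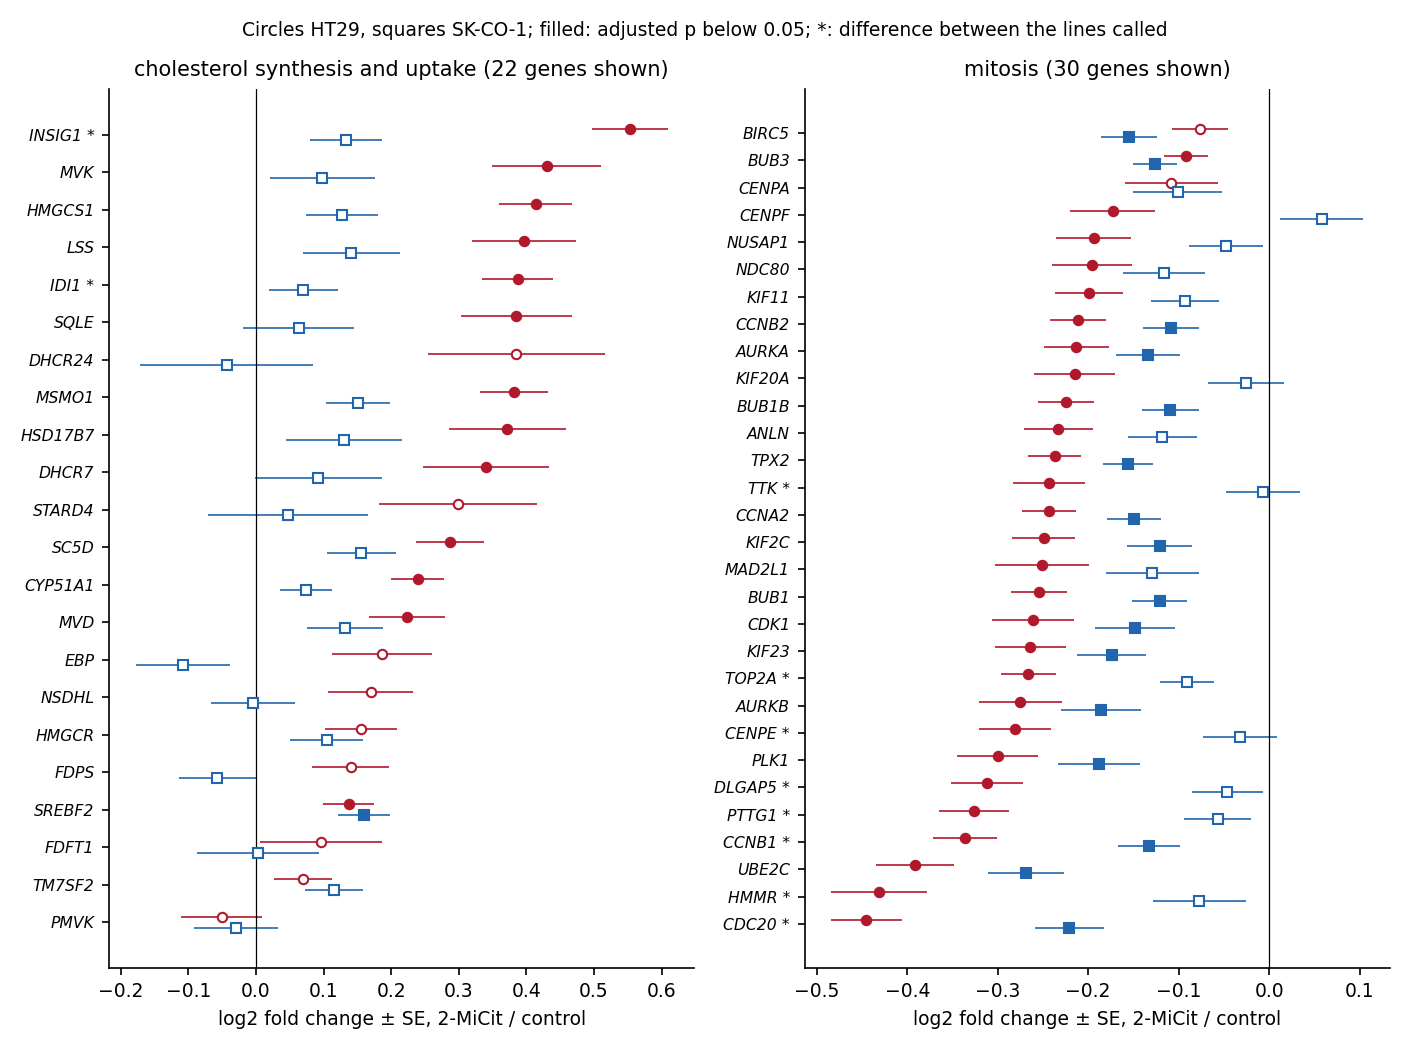
Log2 fold change with SE for tested genes of the cholesterol list (left) and the mitosis list (30 genes, right), in HT29 (circles) and SK-CO-1 (squares); filled symbols were called at an adjusted p below 0.05, and a star marks a called difference between the lines. The HT29 symbols lie to the right of the SK-CO-1 ones for all cholesterol genes shown except SREBF2, TM7SF2 and PMVK, and to the left for all mitosis genes except BIRC5 and BUB3.

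Mitotic genes fell in both lines. Of 30 tested genes 28 were lower in HT29 and 16 in SK-CO-1, none was higher, and 13 were lower in both with no called difference. The median log2 effects were -0.25 and -0.12. UBE2C, the ubiquitin-conjugating enzyme of the anaphase-promoting complex, was at 210, 197, 213 and 219 CPM in HT29 controls and at 158, 150, 158 and 172 CPM with 2-MiCit. In SK-CO-1 it went from 445, 441, 456 and 440 CPM to 347, 373, 388 and 370 CPM. It fell by 0.39 ± 0.04 and by 0.27 ± 0.04 on the log2 scale, with no called difference (adjusted p = 0.314).

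The fall was larger in HT29 for 8 of the 30 genes, 2.44% of all tested genes having a called difference. Among them were PTTG1 (securin, the inhibitor of separase), DLGAP5 (a spindle protein), HMMR (a spindle-binding receptor for hyaluronan) and CENPE (a kinetochore motor), for which SK-CO-1 showed log2 effects between -0.08 and -0.03 that were not called. The other 4 were TTK, CDC20, CCNB1 (cyclin B1) and TOP2A (a DNA topoisomerase). HMMR fell by 0.43 ± 0.05 in HT29 (difference -0.35 ± 0.07, adjusted p = 0.0158), and its difference was lost with the authors' factors. That of CENPE was lost in 8 of the 26 alternatives, and those of PTTG1 and DLGAP5 in none. DLGAP5 was at 55.5, 57.1, 54.3 and 57.1 CPM in HT29 controls and at 44.0, 44.6, 44.3 and 47.6 CPM with 2-MiCit, while the SK-CO-1 groups overlapped between 58.9 and 67.1 CPM. With the authors' factors 25 genes of the list were lower in HT29, 8 in SK-CO-1, and 2 had a called difference. Alone, the lines gave 27 and 22 lower. Leaving out 1 library gave 26 to 29 lower in HT29, 8 to 17 in SK-CO-1 and 3 to 8 called differences. The 3 came without replicate 3 of either HT29 group, replicate 2 of the treated SK-CO-1 libraries or replicate 4 of the SK-CO-1 controls, and the 8 in SK-CO-1 without replicate 1 of its treated libraries or replicate 3 of its controls.

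The promoter of DLGAP5 is printed as an example of the mitotic set (GRCh38.p14, chr14:55191536-55191835, minus strand, same window), with the CCAAT boxes of either strand in capitals.
DLGAP5: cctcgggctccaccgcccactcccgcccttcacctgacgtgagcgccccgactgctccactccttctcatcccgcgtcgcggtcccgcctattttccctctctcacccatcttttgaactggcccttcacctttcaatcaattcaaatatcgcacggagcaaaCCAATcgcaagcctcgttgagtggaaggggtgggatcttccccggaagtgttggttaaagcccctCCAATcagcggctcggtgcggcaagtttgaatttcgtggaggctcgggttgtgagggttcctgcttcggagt
It holds 2 such boxes, 87 and 22 bases before the start. The motif CCAAT was in 19 of the 24 promoters found for the mitosis list (79.2%) and in 36.6% of those found for tested genes, with 43.1% among the genes lower in both lines and 36.3% among those higher in both. It was 50% and 27.4% among the genes lower and higher in HT29 and not in SK-CO-1, and 38.7% and 48.1% among those lower and higher in SK-CO-1 and not in HT29. These shares describe the reference sequence of genes chosen with their known role in mind.

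Genes of ribosome biogenesis were lower for 5 of 21 in HT29 and 10 of 21 in SK-CO-1, with no called difference among them. In the fits of each line alone these were 0 and 15, and leaving out 1 library gave 1 to 7 and 7 to 14. Genes of DNA replication moved little in HT29 (1 of 36 lower) and were lower for 4 of 36 in SK-CO-1, with median log2 effects of 0.01 and -0.15 and again no called difference (the lowest adjusted p was that of CDC6, 0.0778). None of the 4 SK-CO-1 calls was made with the authors' factors or without any 1 of the SK-CO-1 libraries other than treated replicate 3. With replicate numbers as a block in the fit, 13 of the 36 had a called difference. That fit gave 8 higher and 5 lower in HT29, and 20 lower in SK-CO-1. In the fit of SK-CO-1 alone 24 of the 36 replication genes and 21 of 29 nucleotide synthesis genes were lower, against 1 and 0 in HT29 alone. RRM2, the regulated subunit of ribonucleotide reductase, was one of 2 nucleotide genes with a called difference. It was at 491, 505, 490 and 482 CPM in SK-CO-1 controls and at 413, 417, 430 and 416 CPM with 2-MiCit, while the HT29 groups overlapped between 165 and 220 CPM. The difference of RRM2 was 0.35 ± 0.08 (adjusted p = 0.0209), and it was lost with the authors' factors and without replicate 1 of the treated SK-CO-1 libraries.

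The named genes that fell in both lines included cytoskeletal genes. TUBA1B and TUBA1C, alpha-tubulins, fell 1.32-fold and 1.27-fold in HT29 and 1.17-fold and 1.18-fold in SK-CO-1, and TUBB3, a beta-tubulin, 1.29-fold and 1.18-fold. TUBA1B and TUBA1C are near-identical copies whose reads may be shared out between them. MSN, moesin, which ties the membrane to actin, fell 1.22-fold in HT29 and 1.18-fold in SK-CO-1. GPAT3 and EMP1 also fell in both. The HT29 groups overlapped for TUBB3, GPAT3 and EMP1, whose HT29 calls were lost in 7, 6 and 11 of 27 alternatives, HT29 fitted alone among them (adjusted p = 0.135, 0.0746 and 0.126). None of these genes had a called difference.

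Among the genes that rose most in both lines, TPPP3, a protein that stabilises microtubules, was 1.58-fold higher in HT29 and 1.72-fold in SK-CO-1, where it lay between 0.476 and 1.43 CPM. YPEL2 was 1.39-fold and 1.47-fold higher, and DLL4, a Notch ligand, 1.53-fold and 1.43-fold. Differences between the lines for these genes had adjusted p-values of 0.828 to 0.853 and 95% intervals that reached from -0.54 to 0.45 on the log2 scale, so moderate differences remain possible. VIL1, the microvillus protein villin, was higher in both (0.29 ± 0.04 and 0.13 ± 0.04), with the SK-CO-1 call lost in 10 of 27 alternatives. Of 15 tested Wnt targets 5 were higher in HT29 and none lower, and 7 were higher and 1 lower (CD44) in SK-CO-1. NOTUM, a Wnt deacylase, and ASCL2, a stem cell factor, were higher in both lines. Leaving out 1 library gave 4 to 7 higher in each line, and HT29 fitted alone gave 1.

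Opposite directions were called for 32 genes, of which 23 were higher in HT29 and lower in SK-CO-1 and 9 the reverse. Their effects were small, with median sizes of 0.21 in HT29 and 0.18 in SK-CO-1 on the log2 scale. The difference was called for 30 of the 32 when each line had its own spread and for 21 in all 26 alternatives. The opposite direction was less firm: all 32 were called in SK-CO-1 fitted alone (9 higher, 23 lower), but only 11 higher and 4 lower in HT29 fitted alone. The opposite genes named here include EDN1 (endothelin 1, a vasoactive peptide), NT5E (CD73, which makes adenosine from AMP), MMP7 (matrilysin, a secreted protease) and PCSK6 (a proprotein convertase). Some SK-CO-1 calls also depended on the setting. Of 27 alternatives, 20 kept that of INAFM2, 21 that of MMP7, 22 that of GTF2IRD1 and 24 that of PCSK6. All 27 kept those of EDN1, NT5E, GPSM2 and PYCR1.

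EDN1 (ENSG00000078401; chr6:12290363-12297194) was at 17.1, 16.9, 16.0 and 16.0 CPM in HT29 controls and at 22.6, 22.3, 21.3 and 23.3 CPM with 2-MiCit. SK-CO-1 controls had 50.8, 53.5, 52.1 and 50.3 CPM, against 38.7, 44.98, 41.2 and 41.5 CPM with 2-MiCit. No treated library overlapped the controls of its line, and the lines moved toward each other. The log2 effects were 0.44 ± 0.05 and -0.31 ± 0.04, with a difference of 0.75 ± 0.07 (adjusted p = 1.01e-05).

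NT5E (ENSG00000135318; chr6:85449584-85495791) was at 124, 117, 121 and 121 CPM in HT29 controls and at 150.5, 139.7, 142 and 147 CPM with 2-MiCit. In SK-CO-1 it was at 45.8, 47.3, 46.4 and 42.3 CPM in controls and at 31.4, 35.6, 31.6 and 33.9 CPM with 2-MiCit. Here the lines moved apart, since HT29 had the higher level to begin with. The log2 effects were 0.26 ± 0.04 and -0.46 ± 0.04 (difference 0.72 ± 0.06, adjusted p = 1.01e-05).

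MMP7 rose by 0.37 on the log2 scale in HT29 and fell by 0.26 in SK-CO-1, where its controls held 8.71 to 10.5 CPM and the groups overlapped. CHKA, choline kinase, rose 1.23-fold and fell 1.15-fold, INAFM2 rose 1.34-fold and fell 1.14-fold, and PCSK6 rose 1.16-fold and fell 1.11-fold. ABCC4, an export pump for cyclic nucleotides and drugs, rose 1.15-fold and fell 1.13-fold, and PFKFB3, which activates glycolysis, rose 1.16-fold and fell 1.14-fold. CD44, a hyaluronan receptor and Wnt target, had effects of 0.11 ± 0.03 and -0.13 ± 0.03. The differences of PFKFB3 and CD44 were lost with the authors' factors, and that of CD44 also without replicate 3 of the SK-CO-1 controls (0.0601, the highest adjusted p over its alternatives). The HT29 call of CD44, with an adjusted p of 0.0489, was lost in 20 of 27 alternatives and that of PFKFB3 in 3, HT29 fitted alone among them for both.

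In the reverse direction, PYCR1, the last enzyme of proline synthesis and an ATF4 target, was at 292.5, 299, 310.1 and 311 CPM in HT29 controls and at 278, 271, 278 and 265 CPM with 2-MiCit. In SK-CO-1 it was at 241, 241, 245 and 249 CPM in controls and at 269, 265, 273 and 271 CPM with 2-MiCit. Its treated libraries lay below all controls in HT29 and above all controls in SK-CO-1 (difference -0.30 ± 0.04, adjusted p = 0.000623). It stood alone in its list: of 29 tested ATF4 and integrated stress response genes, 1 was higher and 3 lower in HT29, 1 higher and 2 lower in SK-CO-1, and only PYCR1 had a called difference. GPSM2, which orients the mitotic spindle, fell 1.17-fold in HT29 and rose 1.12-fold in SK-CO-1. GTF2IRD1, a transcription factor, fell 1.24-fold and rose 1.16-fold. CEACAM5, the carcinoembryonic antigen, fell from a mean of 9.30 CPM by 0.36 ± 0.10 in HT29 and rose by 0.37 ± 0.11 in SK-CO-1, where it lay between 3.02 and 4.97 CPM, and its difference was lost with the authors' factors (adjusted p = 0.41), and its HT29 and SK-CO-1 calls in 6 and 9 of 27 alternatives.

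Some TGF-beta and YAP targets were lower in SK-CO-1, where 3.99% of all tested genes were called lower. Of 18 tested genes, CCN2 alone was higher in HT29 and none was lower, and in SK-CO-1 6 were lower and none higher (among the 6 were TGFBI, AMOTL2, FN1, ANKRD1 and CCN1). The median log2 effects were -0.01 and -0.20. The difference was called for CCN2, CCN1 and AMOTL2. In the fits of each line alone 1 of the 18 was higher in HT29 and 10 were lower in SK-CO-1. Leaving out 1 library gave 4 to 7 lower in SK-CO-1 and 2 to 5 called differences.

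CCN2 (connective tissue growth factor; ENSG00000118523; chr6:131948176-131951373, minus strand) was at 11.7, 12.4, 12.2 and 9.05 CPM in HT29 controls and at 21.9, 17.3, 17.8 and 17.7 CPM with 2-MiCit. In SK-CO-1 it was at 64.5, 63.8, 63.4 and 60.9 CPM in controls and at 51.5, 57.6, 56.1 and 53.2 CPM with 2-MiCit. The groups did not overlap in either line and stood in opposite order. The log2 effects were 0.72 ± 0.09 and -0.21 ± 0.08, the latter with an adjusted p of 0.105, and 0.00112 in the fit of SK-CO-1 alone. The difference of 0.93 ± 0.12 (adjusted p = 0.000565) was called in all 26 alternatives, and lay between 0.84 and 0.98 in them. AMOTL2, an angiomotin that binds YAP, was at 204 to 209 CPM in SK-CO-1 controls and 174 to 178 CPM with 2-MiCit, and its HT29 groups overlapped (difference 0.29 ± 0.05, adjusted p = 0.00655). CCN1 was at 28.2 to 30.8 CPM and then 19.9 to 23.5 CPM in SK-CO-1, and its called difference (0.64 ± 0.16, adjusted p = 0.0449) was lost in 14 of the 26 alternatives.

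The promoter of CCN2 is printed because it holds the letters that TEAD factors bind (GRCh38.p14, chr6:131951323-131951622, minus strand, same window). Capitals mark CATTCC on either strand, which reads GGAATG here.
CCN2: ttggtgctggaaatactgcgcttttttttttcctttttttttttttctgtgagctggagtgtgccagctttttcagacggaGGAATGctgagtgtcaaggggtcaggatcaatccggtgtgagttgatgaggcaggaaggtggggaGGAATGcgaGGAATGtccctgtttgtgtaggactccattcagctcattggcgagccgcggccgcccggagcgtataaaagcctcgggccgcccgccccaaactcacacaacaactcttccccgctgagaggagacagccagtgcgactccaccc
There are 3 matches, the outermost of them 169 and 95 bases before the start. At least 1 match was in 14.0% of all promoters in the table and in 11% of the 10873 found for tested genes. The TGF-beta and YAP list had a match in 4 of 13 promoters found. The share was 17.7% and 12.5% among the genes higher and lower in HT29 and not in SK-CO-1. It was 7.41% and 12.9% among those higher and lower in SK-CO-1 and not in HT29.

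Of 21 tested immediate early genes, the first to respond to growth signals, 3 were higher in HT29, and 1 was higher and 3 were lower in SK-CO-1. In the fit of SK-CO-1 alone 2 were higher and 8 lower. No HT29 call was made with HT29 fitted alone, with the authors' factors, with the length trend removed, without replicate 3 or 4 of the treated HT29 libraries or without replicate 4 of its controls, and 7 were made without treated replicate 2. The HT29 effect was above that in SK-CO-1 for JUN, IER2, FOSL1 and CCN1, and below it for EGR2. FOSL1, an AP-1 subunit downstream of MAP kinase, was at 300 to 314 CPM in SK-CO-1 controls and at 233 to 250 CPM with 2-MiCit, while its HT29 groups overlapped between 14.6 and 19.6 CPM. JUN, another AP-1 subunit, had log2 effects of 0.19 in HT29 and -0.20 in SK-CO-1 (adjusted p of the difference 0.0241), and IER2 of 0.10 and -0.17 (0.0154). The difference of FOSL1 (0.41 ± 0.10, adjusted p = 0.045) was lost in 15 of the 26 alternatives, that of JUN in 5 (and its HT29 call in 12 of 27), and that of EGR2 in 19 of the 25 in which it was tested. Of 14 ERK feedback genes none had a called difference. With the authors' factors 1 of the 21 immediate early genes had one.

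Outside these lists, MUC13, a membrane mucin of the gut surface, was at 101, 111, 110 and 97.6 CPM in HT29 controls and at 145, 155, 147 and 144 CPM with 2-MiCit, with SK-CO-1 overlapping between 149.5 and 166 CPM. The difference of 0.55 ± 0.06 (adjusted p = 3.56e-05) was called in all 26 alternatives. PHGR1, a small protein of intestinal epithelium, rose 1.85-fold in HT29 (difference 0.70, adjusted p = 0.0361), and its difference was lost in 13 of the 26 alternatives. Of the 16 tested genes of intestinal differentiation, 5 were higher and 2 lower in HT29 (CEACAM5 and CEACAM6), and 3 were higher in SK-CO-1. ADAM19, a membrane protease, was at 28.7, 22.9, 24.8 and 27.7 CPM in HT29 controls and at 14.6, 13.5, 16.0 and 15.2 CPM with 2-MiCit, whereas SK-CO-1 kept 228 to 245 CPM throughout. It fell by 0.81 ± 0.06 in HT29 (difference -0.77 ± 0.08, adjusted p = 3.62e-05). SAT1, which acetylates polyamines, fell 1.48-fold in HT29, and OAS1, an interferon-induced antiviral enzyme, rose 1.38-fold there. HERPUD1, an endoplasmic reticulum stress gene, rose 1.18-fold in HT29. The differences of these 3 genes were called and were lost in 11 alternatives for SAT1 and in 3 each for OAS1 and HERPUD1. HERPUD1 went against its list, the chaperones and unfolded protein response of the endoplasmic reticulum. Of 18 tested members it alone was higher in HT29, and HSPA5, DNAJB11 and SEL1L were lower. The median log2 effect of that list in HT29 was -0.0985.

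In SK-CO-1 and not in HT29, GPX2, the gut glutathione peroxidase, was higher: 108, 110, 114 and 123 CPM in controls and 165, 156, 161 and 170 CPM with 2-MiCit. HT29 had 431, 444, 447 and 461 CPM and then 459, 530, 460 and 464 CPM, and those groups overlapped. The log2 effects were 0.52 ± 0.05 and 0.10 ± 0.05 (difference -0.42 ± 0.07, adjusted p = 0.00343), called in all 26 alternatives. VWA2, a matrix protein, rose 1.63-fold in SK-CO-1 from 2.34 to 3.17 CPM in controls, and its difference was lost in 5 alternatives. COG5, IGFL4, PAQR8 and ANKRD22 had log2 effects of 0.48 to 0.60 in SK-CO-1 and were not called in HT29, and each of these differences was lost in 12 to 18 alternatives.

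Lower in SK-CO-1 and not called in HT29 were ODC1, the first enzyme of polyamine synthesis (507 to 526 CPM in controls and 422 to 454 CPM with 2-MiCit), and SGMS2, a sphingomyelin synthase (17.3 to 18.4 CPM and 13.8 to 15.0 CPM). The differences of ODC1 (0.20 ± 0.05, adjusted p = 0.0399) and SGMS2 (0.36 ± 0.09, adjusted p = 0.0399) were each lost in 13 alternatives. TKT, transketolase of the pentose phosphate pathway, fell by 0.16 in SK-CO-1 and had an effect of 0.10 in HT29 that was not called (adjusted p of the difference 0.0147, lost with the authors' factors).

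Of the 22 genes that moved in 1 direction with different size, 16 rose and 6 fell, and 19 moved further in HT29. HHLA2, an immune checkpoint ligand of the B7 family, was at 11.3, 12.8, 11.6 and 11.9 CPM in HT29 controls and at 19.8, 23.9, 22.1 and 20.4 CPM with 2-MiCit. In SK-CO-1 it was at 10.8, 10.8, 12.2 and 11.8 CPM and then at 14.8, 13.9, 14.3 and 13.2 CPM. Both lines started at a similar level, and HT29 rose 1.81-fold against 1.23-fold (difference 0.55 ± 0.09, adjusted p = 0.00434). PDZK1, a scaffold of apical transporters, rose 1.82-fold and 1.22-fold. ARRB1, beta-arrestin 1, rose 1.47-fold and 1.16-fold, MYO1D, a motor of the brush border, 1.24-fold and 1.06-fold, and FAM222A by 0.84 and 0.22 on the log2 scale. H2AC6, a histone H2A gene with a polyadenylated transcript, rose by 0.93 and 0.27, and histone genes have near-identical copies. The differences of ARRB1 and MYO1D were lost with the authors' factors and that of PDZK1 in the fit of 24 libraries. The SK-CO-1 calls were lost in 15 of 27 alternatives for H2AC6, in 16 for MYO1D and in 9 for FAM222A.

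The largest fold differences belonged to genes that 1 line barely expressed, and 25 of the 376 genes had under 1 CPM in a line. ADRA2C, an adrenergic receptor, had 0 counts in all 4 HT29 controls and 1, 2, 7 and 1 counts with 2-MiCit, against 671 to 932 counts in SK-CO-1 libraries. Summed over the groups, the ratio of treated to control HT29 libraries had an exact 95% lower counting limit of 2.53. PLEKHS1 had 3 counts in the HT29 controls together and 27 with 2-MiCit, a ratio of 9.06 with an exact 95% counting interval of 2.79 to 46.7, against 1.31 in SK-CO-1. KIAA1549L, LRRN1 and XYLT1 had 14 to 26 counts in the HT29 controls together and 35 to 60 with 2-MiCit. SOCS2, an inhibitor of cytokine signalling, went from 55 to 19 counts, and HAS2, a hyaluronan synthase and 1 of the 32 opposite genes, from 57 to 28 in HT29, while in SK-CO-1 it went from 7098 to 8499. DAPP1 had 48 and then 21 counts in SK-CO-1. Each of these 8 differences was lost when each line had its own spread, and that of ADRA2C in 11 of 25 alternatives. RASL11A, a small GTPase of the Ras superfamily, differed in this: it had 136, 122, 145 and 171 counts in HT29 controls and 286, 291, 254 and 309 with 2-MiCit, against 29, 23, 34 and 27 and then 14, 23, 20 and 18 in SK-CO-1. Its groups did not overlap on the CPM scale in either line, and its difference of 1.58 ± 0.20 (adjusted p = 0.000584) was kept in 24 of 25 alternatives, the exception being the authors' factors. Genes specific to SK-CO-1 (59 genes) stood in HT29 libraries at 0.022% to 0.12% of their SK-CO-1 level, and a share of these low counts that came from other libraries was not tested.

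Cytosolic aminoacyl-tRNA synthetases, which charge tRNAs, were lower for 7 of 20 in HT29 (1 was higher) and for 3 in SK-CO-1, with a called difference for IARS1 and LARS1. In the fits of each line alone 5 were lower in HT29 and 11 in SK-CO-1. Of 11 tested genes listed as cytosolic heat shock chaperones, 1 was lower in each line. It was HSPD1 in both, a mitochondrial chaperonin, so none of the cytosolic members was called. In the fits of each line alone 1 and 10 of the 11 were lower. Of 17 glycolysis genes 2 were lower and 1 higher in HT29 and 4 lower in SK-CO-1, with a called difference for PGAM1, a phosphoglycerate mutase, and each line alone gave 1 and 10 lower. Of 23 genes of the tricarboxylic acid cycle and citrate transport, 1 was lower in HT29, and 1 was higher (IDH1, 1.13-fold) and 3 lower in SK-CO-1, among them CS, citrate synthase (1.13-fold). No gene of that list, of 10 genes of propionate metabolism or of 28 nuclear genes of complex I had a called difference. ACO1, IDH2 and SLC25A1, which act on or carry citrate and isocitrate, and the drug-metabolism genes TYMS and UMPS were not called in either line. TYMS was lower in the fit of SK-CO-1 alone (-0.18, adjusted p = 0.000262), and DPYD had no count in any SK-CO-1 library. All 13 mitochondrially encoded genes were uncalled in both lines.

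**Figure D4:**
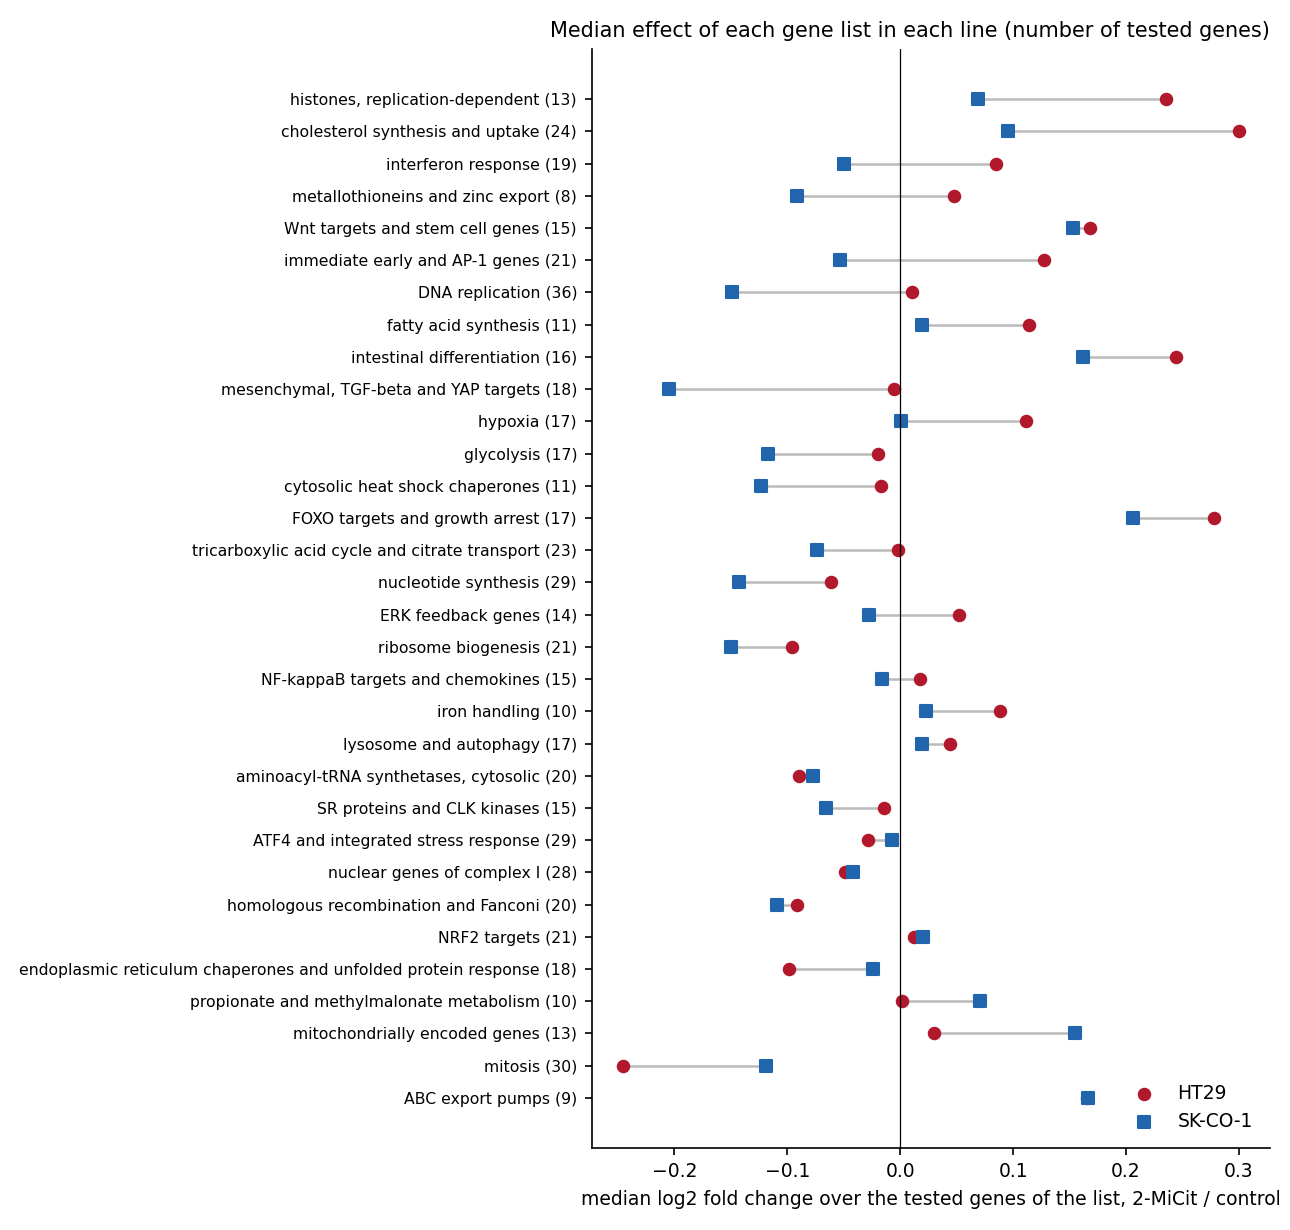
Median log2 fold change with 2-MiCit over the tested genes of each list (number in brackets) in HT29 (circles) and SK-CO-1 (squares), ordered by the median difference; where a circle is hidden the medians nearly coincide. Both lines are below 0 for mitosis and above 0 for the FOXO and Wnt lists; for cholesterol the HT29 median is 0.30 against 0.10, and for TGF-beta and YAP targets -0.01 against -0.20.

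SW1417, the other line of the same count table, gave values for the genes sorted above. In a fit of all 24 libraries 2.72% of 16090 genes were called in SW1417, 1.31% higher and 1.41% lower. Of the 184 genes higher in both HT29 and SK-CO-1, 36 were called higher in SW1417 and 1 lower, and of the 144 lower in both, 33 were lower and none higher. Of the 169 genes called higher in HT29 and not in SK-CO-1, 12 were higher and 5 lower in SW1417. The 59 called lower in HT29 and not in SK-CO-1 included 9 lower and none higher. The 37 called higher in SK-CO-1 and not in HT29 included 2 higher and 1 lower in SW1417. Among the 38 called lower in SK-CO-1 and not in HT29, 5 were lower and none higher. Among the 32 opposite genes 1 was higher and 2 lower. TXNIP was called higher in SW1417 (log2 effect 0.31, adjusted p = 0.0369), ADAM19 lower (-0.28, adjusted p = 0.00171) and FOSL1 lower (-0.34, adjusted p = 0.0026). VWA2 was called higher (0.33, adjusted p = 0.0306), and RRM2 (-0.20, adjusted p = 0.0283) and ODC1 (-0.13, adjusted p = 0.0468) lower. INSIG1 (0.02), GPX2 (0.07) and SGMS2 (-0.19) were among those not called.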

How the data were processed

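RNA of 16 libraries was sequenced from Illumina stranded mRNA libraries. The deposited table holds whole-number counts per gene that the authors made, per the submitters' processing notes, with bcl2fastq 2.20.0, Trimmomatic 0.39, Salmon 1.5.0 and DESeq2 on GRCh38.p13. Salmon shares reads between similar transcripts, so near-identical copies are uncertain. The authors' deposited normalized counts (a signal on a linear scale) gave their scaling only, as an alternative. Here, edgeR 4.0.16 (R 4.3.3) fitted 4 group means to genes passing filterByExpr, with TMM factors and the robust quasi-likelihood test, two-sided. CPM levels use library totals times TMM factors. Symbols came from the supplied gene table (14847 of 16454 identifiers; the others, 3.8% to 4.2% of the counts, stayed in the fit), coordinates from GENCODE 29 (GRCh38). The test was checked on simulated counts with 1 common spread for all genes in both lines. That check does not cover a spread that differs between genes or lines. Alternatives used DESeq2 1.42.0, limma 3.58.1, other factors, filters and libraries. Genes with a mean of at least 5 CPM in the highest group were named by rule: the 8 largest differences each way, up to 10 opposite genes by p, 8 shared genes each way and 6 of 1 line alone each way by size, 6 of different size by p, and up to 4 members per list by p of the difference, besides 12 fixed genes. Genes outside the rule are members of a list or count being described, chosen after their values were seen. The members and lists were chosen with earlier results of these data known. Some genes are not reported here.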

Additional observations from a re-analysis of the deposited data

Results flagged for a closer look

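The treatment-by-line interaction was called for 376 genes. Among the genes described above, HT29 minus SK-CO-1 log2 differences above 0.5 were 1.17 for ARRDC4, 1.07 for TXNIP, 0.93 for CCN2, 0.75 for EDN1, 0.72 for NT5E, 0.67 for H2AC6, 0.64 for CCN1, 0.63 for MMP7 and FAM222A, 0.61 for INAFM2, 0.57 for PDZK1, and 0.55 for MUC13 and HHLA2. CHKA differed by 0.5. Smaller positive differences were 0.42 for INSIG1, 0.41 for PFKFB3 and FOSL1, 0.37 for ABCC4, 0.36 for SGMS2, 0.35 for PCSK6, RRM2 and ARRB1, 0.32 for IDI1, 0.29 for AMOTL2, 0.23 for CD44 and MYO1D, and 0.2 for ODC1. Negative differences were -0.77 for ADAM19, -0.73 for CEACAM5, -0.58 for VWA2, -0.53 for GTF2IRD1, -0.42 for GPX2, -0.39 for GPSM2, -0.35 for HMMR, -0.3 for PYCR1 and -0.27 for PTTG1 and DLGAP5.

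In 8 of 180 groups of 4 libraries, 1 library stood far from the other 3 by Dixon's criterion, which chance meets in about 1 of 20. In HT29 with 2-MiCit, replicate 1 stood apart for CCN2 (21.9 CPM), replicate 4 for DLGAP5 (47.6 CPM), and replicate 2 for GPX2 (530 CPM), FOSL1 (14.6 CPM), H2AC6 (16 CPM) and TUBA1C (420 CPM). In HT29 controls, replicate 4 stood apart for ARRB1 (33.6 CPM) and replicate 1 for MYO1D (88.5 CPM).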

How the results depend on the processing

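Counts moved by over 1.5 times as follows, in the order differences, HT29 calls, SK-CO-1 calls, shared higher, shared lower, different size, HT29 alone higher and lower, SK-CO-1 alone higher and lower, opposite. With the authors' factors they were 116, 1033, 462, 43, 55, 1, 58, 24, 11, 8 and 9. DESeq2 gave 761 differences, 1813 SK-CO-1 calls, 276 shared lower, 46 of different size, 285 and 129 in HT29 alone, 76 and 114 in SK-CO-1 alone, and 49 opposite. The fit of 24 libraries gave 666 differences, 324 shared lower, 159 lower in HT29 alone, and 63 and 81 in SK-CO-1 alone. Each line fitted alone gave 1065 HT29 and 2775 SK-CO-1 calls. Taken with the called differences of the fit of both lines, these calls gave 111 higher in HT29 alone, and 57 and 66 in SK-CO-1 alone. Per-line weights gave 2571 SK-CO-1 calls. A stricter filter gave 97 lower in HT29 alone, and at least 1 CPM in each line gave 60 higher in SK-CO-1 alone. Leaving out 1 library at a time gave 188 to 473 differences, 1351 to 2144 HT29 calls, 498 to 1567 SK-CO-1 calls, 87 to 206 shared higher, 71 to 230 shared lower, 7 to 24 of different size, 95 to 207 and 36 to 96 in HT29 alone, 11 to 44 and 9 to 67 in SK-CO-1 alone, and 14 to 42 opposite. The lowest count of differences, 188, came without replicate 3 of the SK-CO-1 controls. Fewer libraries and genes enter those fits; the cause of the other shifts was not tested. The alternatives with each line alone, per-line weights and 1 CPM in each line were chosen after seeing the data. No effect or difference of a named gene went from called to the opposite sign in the alternatives run, but the order of the lines by number of calls reversed with each line alone and with per-line weights.

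Correlations of same-numbered deviations ran from -0.0232 to 0.0561, and pairing of the libraries by replicate number was neither shown nor excluded. With replicate numbers as a block in the fit, 14 of 24 cholesterol genes and 13 of 36 DNA replication genes had a called difference. Without it these were 3 and 0. A replicate block gave 903 differences, 1968 SK-CO-1 calls, 278 shared higher, 348 shared lower, 62 of different size, 313 and 181 in HT29 alone, 90 and 120 in SK-CO-1 alone, and 93 opposite.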
